A study of Homo sapiens with 24 samples.

Results

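Gene expression in A2780 cells kept at 1% oxygen for 6 days was compared with that in A2780 cells kept in normoxia for the same 6 days. The comparison rests on 4 of the 24 samples of the series, which are the total RNA libraries 9 and 10 from normoxia and 11 and 12 from hypoxia. Genes entered it by level only: of 22446 gene symbols, 11933 reached 1 RPKM in at least 2 of the 12 total RNA libraries and were tested. RPKM is the number of reads scaled to the length of the transcript model and to the number of mapped reads.
A2780 is an established human line that the labels call an epithelial ovarian cancer line. The study sequenced ribosome-depleted total RNA on a SOLiD instrument after 6 hr, 48 hr and 6 days, with 2 normoxia and 2 hypoxia libraries at each time, and the other 12 samples give precursor miRNA values of the same libraries. Both groups grew in RPMI medium with fetal bovine serum and gentamicin in 5% CO2, and neither carries a transgene or a deletion by its labels. The hypoxia groups were kept in an oxygen-controlled chamber. The sources used here do not give cell density, medium changes or passages over the 6 days, and do not say that replicate libraries stem from different cultures. The p-values therefore measure the spread between these libraries, which may be technical.

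Cells sense oxygen through hypoxia-inducible factor (HIF). Prolyl hydroxylases mark its alpha subunits for destruction with oxygen as a substrate, so that at low oxygen HIF accumulates, joins ARNT and binds promoters and enhancers at a short core of letters. Its targets carry glucose through glycolysis, export acid, modify collagen, call in blood vessels and remove mitochondria, and hypoxic regions of solid tumours such as ovarian cancer are known for them.

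Promoters of strongly raised genes are printed first because 63.6% of those of the 14 most raised genes that could be matched (7 of 11) held the letters ACGTG. The window runs from 250 bases before to 50 bases after each gene's start in RefSeq on build GRCh38.p14. Both strands were searched for ACGTG and GCGTG, the 2 forms of the HIF core, and matches stand in capitals, on the other strand as CACGT and CACGC. A palindromic CACGTG counts on both strands.
CA9 (chr9:35673678-35673977, plus strand): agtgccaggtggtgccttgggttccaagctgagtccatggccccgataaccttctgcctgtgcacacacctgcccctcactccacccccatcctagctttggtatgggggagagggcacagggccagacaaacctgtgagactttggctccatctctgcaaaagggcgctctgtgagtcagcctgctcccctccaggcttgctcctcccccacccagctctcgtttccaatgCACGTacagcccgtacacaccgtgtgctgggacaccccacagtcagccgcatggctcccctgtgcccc
LOX (chr5:122078210-122078509, minus strand): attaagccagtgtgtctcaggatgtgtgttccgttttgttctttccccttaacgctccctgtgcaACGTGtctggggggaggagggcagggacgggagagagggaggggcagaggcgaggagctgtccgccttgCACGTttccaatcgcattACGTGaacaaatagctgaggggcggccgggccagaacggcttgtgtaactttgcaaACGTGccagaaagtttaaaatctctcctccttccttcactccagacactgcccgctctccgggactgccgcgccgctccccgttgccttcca
PPP1R3C (chr10:91633022-91633321, minus strand): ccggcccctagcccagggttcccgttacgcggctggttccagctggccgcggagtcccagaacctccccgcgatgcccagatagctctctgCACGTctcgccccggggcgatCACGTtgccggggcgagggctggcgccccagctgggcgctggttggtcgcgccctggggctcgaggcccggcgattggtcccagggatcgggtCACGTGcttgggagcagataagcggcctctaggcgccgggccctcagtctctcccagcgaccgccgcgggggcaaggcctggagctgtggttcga
BNIP3 (chr10:131981874-131982173, minus strand): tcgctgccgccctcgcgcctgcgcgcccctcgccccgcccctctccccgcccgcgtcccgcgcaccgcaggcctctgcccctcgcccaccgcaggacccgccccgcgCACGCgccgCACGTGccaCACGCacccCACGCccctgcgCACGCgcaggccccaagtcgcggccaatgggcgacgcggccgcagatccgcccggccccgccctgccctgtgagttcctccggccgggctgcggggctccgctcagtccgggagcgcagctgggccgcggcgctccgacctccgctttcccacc
CA9 had 1 match, LOX and PPP1R3C 4 each and BNIP3 6. Of the 51 HIF targets with a promoter, 56.9% (29) held ACGTG, against 27.6% of the 9020 tested genes with a promoter and 21.6% of all 27305 RefSeq promoters of this length. Among genes higher in hypoxia the share was 30.8%, and among genes lower in hypoxia 24.8%, while among genes changed at least 2-fold it was 32.9% of the higher and 30.4% of the lower. Of the 11 matched promoters of the most raised genes 4 did not hold ACGTG and are not printed. With GCGTG included the shares were 80.4% of the HIF targets, 65.1% of the tested genes, 64.6% of the genes at least 2-fold higher and 48.4% of all promoters. A match describes letters in the window and says nothing of binding there.

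Of the 11933 genes tested, 5039 differed between hypoxia and normoxia at 6 days, which is 42.2%, with limma on log2(RPKM + 0.5) and a Benjamini-Hochberg adjusted p under 0.05. In hypoxia 2852 genes (23.9%) were higher and 2187 (18.3%) were lower. Most differences were small, with 1418 rises and 1425 falls of less than 1.5-fold. The larger ones leaned one way: 577 genes (4.84%) were at least 2-fold higher and 110 (0.922%) at least 2-fold lower, and 100 genes were at least 4-fold higher while none was 4-fold lower. The median difference over all genes was 0.04 on the log2 scale and 9 in 10 genes lay between -0.65 and 1.01. Differences are on the log2(RPKM + 0.5) scale throughout, which understates the change of genes with low values.
The split into higher and lower calls depended on the scaling of the libraries. As deposited, 56.6% of the calls were higher. After quantile normalization the share was 45.3% of 5984 calls, and after centring each library on its trimmed mean it was 49.2% of 5428 calls. The 2 scalings moved the median of all genes by -0.08 and -0.05. Each of the 14 most raised and 14 most lowered genes kept its direction and its call under both. Of the tested genes, 232 reached the minimum in the 2 hypoxia libraries of 6 days alone, and 207 of these were higher, which the choice of genes favours. The filter let in 48 genes through the 2 normoxia libraries of 6 days alone.
Depth and agreement of the libraries were similar. Implied from the values of short precursors, the 4 libraries held 25150000 to 33190000 reads, within 25150000 to 51850000 over the 12. Pearson's r between the log2 values of a pair, across genes that are not independent replicates, was 0.994 in normoxia and 0.993 in hypoxia at 6 days, within 0.989 to 0.995 over the 6 pairs.

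**Figure D1:**
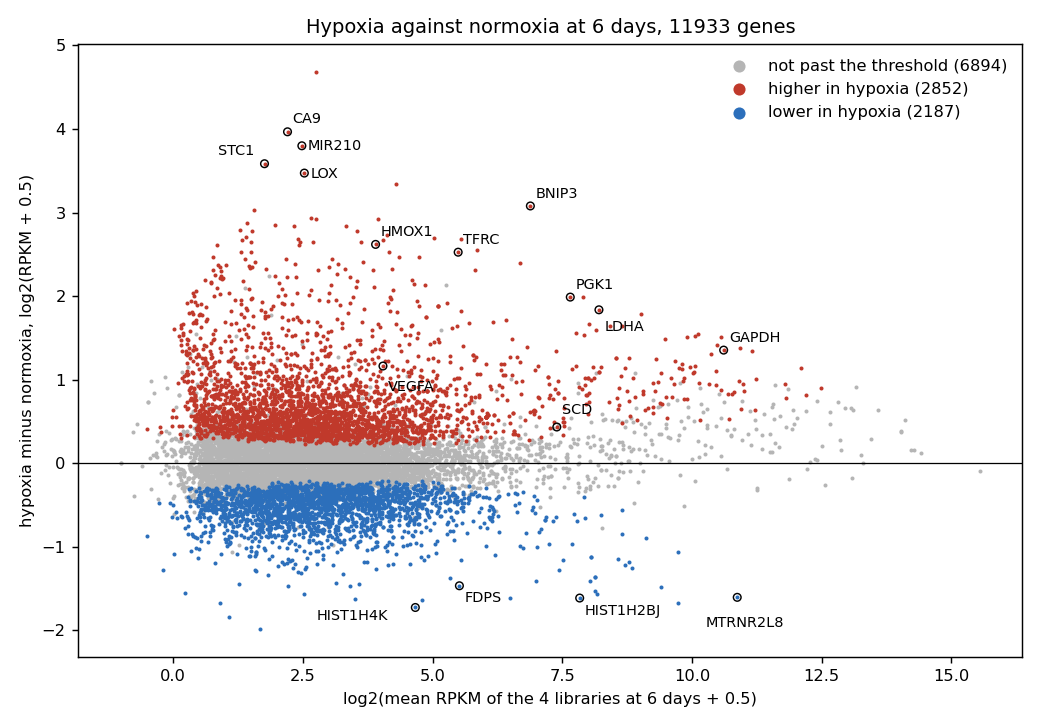
Difference between hypoxia and normoxia at 6 days for each tested gene (y axis, log2(RPKM + 0.5)) against its mean level in the 4 libraries (x axis, log2(RPKM + 0.5)). Points in red were higher (2852) and in blue lower (2187), grey points (6894) did not pass the threshold, and circled points are named. Points reach above 4 but not below -2.

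The 14 genes with the largest rises were NPPB, CA9, STC1, LOX, PPP1R3C, BNIP3, S100A10, DPYSL4, ADM, ANKRD37, LOC440461, UPK1A, NRN1 and RIMKLA. Short non-coding RNAs were ranked apart from these. NPPB, the precursor of B-type natriuretic peptide, was listed at 0 in both normoxia libraries and at 13.7 and 11.1 RPKM in hypoxia, so no fold is given (adjusted p = 2.3e-08). CA9, the cell-surface carbonic anhydrase IX that handles exported acid, was at 0.0431 and 0.0638 RPKM in normoxia and 7.75 and 8.57 RPKM in hypoxia. Its difference was 3.97 (SE 0.15, adjusted p = 2.3e-08). STC1, the hormone stanniocalcin 1, was at 0.0173 and 0.0256 RPKM in normoxia and 5.73 and 5.78 RPKM in hypoxia, a difference of 3.58 (SE 0.12, adjusted p = 2.3e-08). In these 3 genes the normoxia libraries sat at or near 0 and both hypoxia libraries above 5 RPKM. STC1 and LOC440461 reached the minimum level for testing through the hypoxia libraries of 6 days alone, so they had to differ.
Others in the group already had a measurable level in normoxia. PPP1R3C, which targets protein phosphatase 1 to glycogen, was at 2.63 and 3.47 RPKM in normoxia and 36.9 and 33.9 RPKM in hypoxia, a difference of 3.34 (SE 0.13, adjusted p = 4.4e-08). BNIP3, a receptor that marks mitochondria for autophagy, was at 25.2 and 23.7 RPKM in normoxia and 225 and 197 RPKM in hypoxia, a difference of 3.08 (SE 0.11, adjusted p = 2.3e-08). ADM, the vessel-widening peptide adrenomedullin, was at 2.68 and 3.49 RPKM in normoxia and 27.8 and 25.4 RPKM in hypoxia, a difference of 2.92 (SE 0.12, adjusted p = 4.4e-08). BNIP3 had the highest level of the 14 in hypoxia, and all 3 of these genes had both hypoxia libraries far above both normoxia libraries. S100A10, the partner of annexin A2, rose by 3.03, DPYSL4, a collapsin response mediator protein, by 2.94, ANKRD37, an ankyrin repeat gene, by 2.92, UPK1A, a uroplakin of bladder epithelium, by 2.85, NRN1, neuritin, by 2.84 and RIMKLA, which joins glutamate to N-acetylaspartate, by 2.84. The genes were named among those whose groups do not overlap, so the gap between the groups is fixed by the choice.
Among the 14 genes that fell most were 4 histone genes and 5 of the humanin-like MTRNR2L family. HIST1H4K, a replication-dependent histone H4 gene, was at 39.6 and 37.3 RPKM in normoxia and 13 and 9.7 RPKM in hypoxia, a difference of -1.73 (SE 0.21, adjusted p = 1.1e-04). Single genes in the group included SFXN2, a carrier of the inner mitochondrial membrane, FDPS, farnesyl diphosphate synthase of the sterol pathway, IFI35, an interferon-induced gene, and BCYRN1, a brain cytoplasmic RNA. SFXN2 was at 2.4 and 2.3 RPKM in normoxia and 0.412 and 0.372 RPKM in hypoxia, a difference of -1.67 (SE 0.12, adjusted p = 1.9e-06). IFI35 was at 6.17 and 6.42 RPKM in normoxia and 1.9 and 2.01 RPKM in hypoxia, a difference of -1.47 (SE 0.16, adjusted p = 5.1e-05). In SFXN2 the hypoxia libraries of 6 days were below all 8 earlier libraries while the normoxia libraries were within their range. In IFI35 and HIST1H4K the normoxia libraries of 6 days were above the earlier 8, and the hypoxia libraries were within their range, save 1 of HIST1H4K that was below it.

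**Figure D2:**
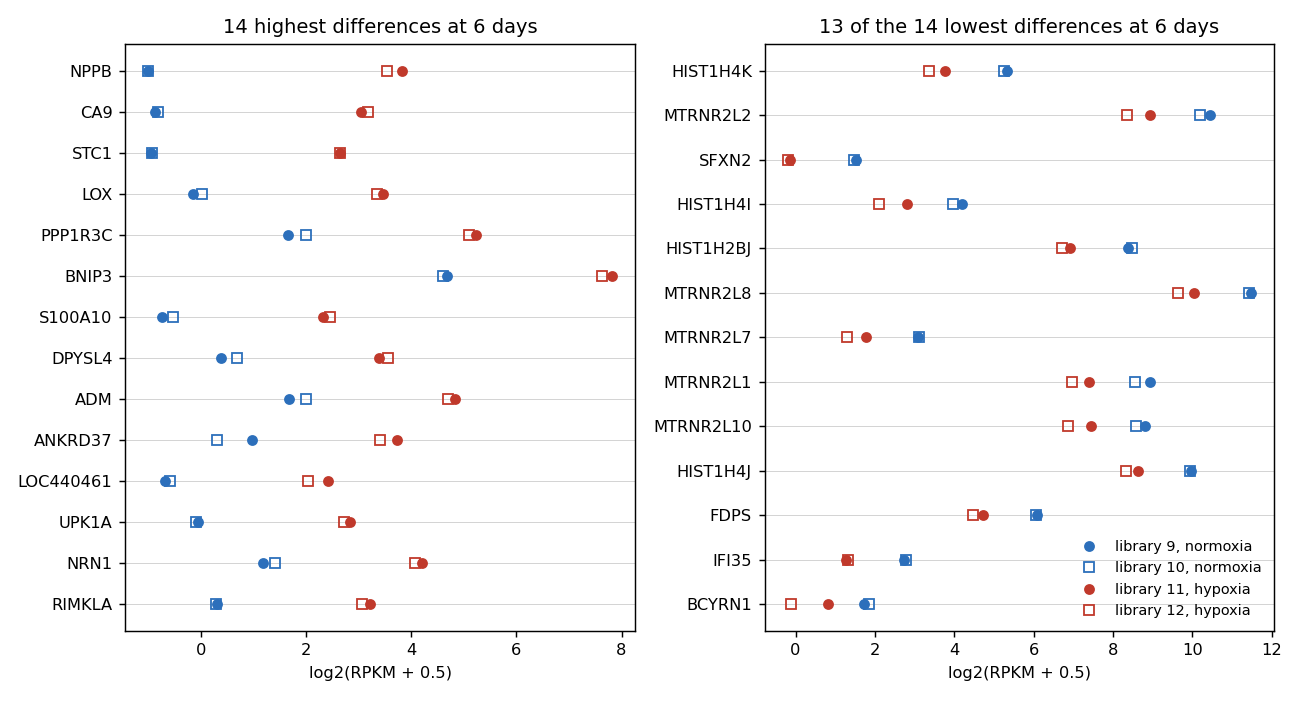
Levels (x axis, log2(RPKM + 0.5)) of the 14 most raised genes (left) and 13 of the 14 most lowered genes (right) in each of the 4 libraries of 6 days. Circles and squares are the libraries of a pair, normoxia in blue and hypoxia in red. The genes were chosen without overlap, so the 2 groups are apart in each.

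HIF targets rose almost without exception. Of 61 tested members of a list of textbook targets, 60 rose and 1 (0 without any one of the 4) fell, with a median difference of 1.92 against 0.04 over all genes. The list was written with earlier results of these data known, so its direction is not independent evidence. Counts on this and the later lists stand against 23.9% higher and 18.3% lower over all genes. A number in brackets after a count here and below is that count with the named 6-day library left out, or after quantile normalization or centring of the libraries, given where it moved by more than 1.5 times. With any one of the 4 libraries left out, 58 to 60 HIF targets rose. The targets NDRG1 and BHLHE41 reached the minimum level through the hypoxia libraries of 6 days alone, and without them 58 of 59 rose. VEGFA, the main vessel growth factor, was at 9.51 and 9.85 RPKM in normoxia and 23.4 and 21.2 RPKM in hypoxia, a difference of 1.16 (SE 0.11, adjusted p = 2.1e-05). NDRG1, a stress-induced gene often used as a hypoxia marker, was at 0.239 and 0.321 RPKM in normoxia and 4.3 and 4.45 RPKM in hypoxia, a difference of 2.65 (SE 0.12, adjusted p = 8.0e-08). Of the 100 genes that were at least 4-fold higher, 26 were on this list, 15 were short non-coding RNAs and 37 were on any of the gene lists. Lists share members, so CA9, LOX, BNIP3 and ADM, for example, are counted again on other lists below.
Glucose handling followed the same direction. Of 28 genes of glycolysis and glucose transport, 22 rose and 1 (0 without any one of the 4, 4 after quantile normalization, 3 after centring) fell, with a median of 1.57, and all 22 rises were at least 2-fold. SLC2A1, the glucose transporter GLUT1, was at 3.89 and 3.61 RPKM in normoxia and 18.2 and 19.1 RPKM in hypoxia, a difference of 2.17 (SE 0.10, adjusted p = 8.3e-08). HK2, the hexokinase that traps glucose, rose by 2.47, PFKFB4, a regulator of phosphofructokinase, by 2.65 and ENO2, an enolase, by 2.55. The abundant enzymes rose too: GAPDH was at 804 and 958 RPKM in normoxia and 2210.2 and 2275 RPKM in hypoxia, a difference of 1.35 (SE 0.19, adjusted p = 2.6e-04). LDHA, which turns pyruvate to lactate, rose by 1.84, and PDK1, the kinase that shuts pyruvate dehydrogenase, was at 8.7 and 8.02 RPKM in normoxia and 32 and 29.1 RPKM in hypoxia, a difference of 1.81 (SE 0.09, adjusted p = 1.2e-07). The member that fell was GPI, glucose phosphate isomerase, and its call was lost without any one of the 4 libraries.
Of 13 genes of glycogen making and breaking, 9 rose and 1, GYG1, fell (median 0.85). GBE1, the branching enzyme, was at 4.98 and 4.61 RPKM in normoxia and 29.8 and 30.1 RPKM in hypoxia, a difference of 2.52 (SE 0.12, adjusted p = 1.1e-07). GYS1, muscle-type glycogen synthase, rose by 1.64 and the phosphatase subunit PPP1R3C, given above, by 3.34. PYGL, a phosphorylase that breaks glycogen down, was at 34.8 and 33.5 RPKM in normoxia and 53.5 and 53.1 RPKM in hypoxia, a smaller difference of 0.63 (adjusted p = 3.7e-04).
Carbonic anhydrases and acid exporters did not move together. Of 11 tested, 4 rose and 2 (0 without library 10 or 12, 1 without library 9 or 11) fell. By share 36.4% were higher and 18.2% lower, against 23.9% and 18.3% over all genes. SLC16A3, the lactate exporter MCT4, was at 6.26 and 7.43 RPKM in normoxia and 28.1 and 26.3 RPKM in hypoxia, a difference of 1.92 (SE 0.12, adjusted p = 6.9e-07), while CA9 rose as above. SLC16A1, the related exporter MCT1, was at 17.8 and 18.3 RPKM in normoxia and 20.7 and 19.9 RPKM in hypoxia and did not pass the threshold (adjusted p = 0.13).

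Genes for secreted factors rose or did not pass the threshold. Of 17 tested, 12 rose and none fell, and 11 to 13 rose with any one library left out. Besides NPPB, STC1 and ADM, ANGPTL4, a vessel and lipase regulator, was at 2.52 and 2.39 RPKM in normoxia and 20.5 and 19 RPKM in hypoxia, a difference of 2.78 (SE 0.12, adjusted p = 5.1e-08). FGF11 rose by 1.91. MIF, a cytokine and the most abundant of the list, was at 98.1 and 95 RPKM in normoxia and 138 and 109 RPKM in hypoxia and did not pass (adjusted p = 0.067). Of the 17 genes, 2 reached the minimum level through the hypoxia libraries of 6 days alone.
Matrix genes that passed the threshold were more often higher than lower. Of 20 genes of collagen modification and matrix cross-linking, 9 rose and 3 fell. The share higher was 45.0% against 23.9% over all genes, and the share lower, 15.0%, was near the 18.3% over all genes. LOX, the lysyl oxidase that cross-links collagen, was at 0.402 and 0.507 RPKM in normoxia and 10.5 and 9.7 RPKM in hypoxia, a difference of 3.47 (SE 0.12, adjusted p = 2.3e-08). PLOD2, a lysyl hydroxylase, was at 8.75 and 7.7 RPKM in normoxia and 55.2 and 56.5 RPKM in hypoxia, a difference of 2.69 (SE 0.12, adjusted p = 6.0e-08). LOXL2, of the LOX family, and the collagen prolyl hydroxylases P4HA1 and P4HA2 rose by 2.39, 2.31 and 2.46. COL5A2, the collagen chain of highest level on the list, fell by 0.30, a call that was lost without any one of the 4 libraries.

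Among the oxygen sensors themselves the response was uneven. Of 11 tested, 5 (2 without library 9 or 11, 3 without library 10 or 12) rose and 1 fell. These shares, 45.5% higher and 9.09% lower, stood against 23.9% and 18.3% over all genes. EGLN1, the prolyl hydroxylase PHD2, was at 6.77 and 6.72 RPKM in normoxia and 29.5 and 27 RPKM in hypoxia, a difference of 1.99 (SE 0.12, adjusted p = 5.3e-07). HIF1A was at 23.8 and 23.4 RPKM in normoxia and 16.6 and 19.8 RPKM in hypoxia, a difference of -0.37 (SE 0.19, adjusted p = 0.14), and did not pass the threshold. ARNT did not pass either, with a difference of 0.02 (adjusted p = 0.88). VHL, the ligase subunit that marks HIF for destruction, fell from 7.11 and 6.89 to 4.04 and 4.29 RPKM, a difference of -0.69 (SE 0.14, adjusted p = 0.0032). EPAS1 (HIF2A) and EGLN3 (PHD3) stayed under 1 RPKM in all 12 libraries and were not tested. EPAS1 was at 0.117 and 0.153 RPKM in normoxia and 0.595 and 0.639 RPKM in hypoxia and EGLN3 at 0.0862 and 0.0121 RPKM in normoxia and 0.609 and 0.745 RPKM in hypoxia, and for both the 2 hypoxia libraries were the higher ones.
Jumonji demethylases, TET enzymes and RNA demethylases such as FTO, which were listed together, use oxygen as HIF hydroxylases do. Of 23 tested, 13 rose and 2 (1 without library 9 or 10 or 12) fell (median 0.57). KDM3A, a histone H3 lysine 9 demethylase, was at 9.7 and 10.9 RPKM in normoxia and 48.2 and 45.1 RPKM in hypoxia, a difference of 2.13 (SE 0.14, adjusted p = 1.3e-06). KDM4B, of the same specificity class, rose by 1.75 and JMJD6 by 1.31. FTO, an RNA demethylase named after its value was seen, fell from 9.48 and 9.91 to 4.73 and 5.46 RPKM, a difference of -0.87 (SE 0.09, adjusted p = 2.4e-05).

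Mitophagy receptors stood out from the rest of the autophagy genes by size. Of 31 genes, 16 (9 without library 11, 10 without library 10) rose and 1 (3 after quantile normalization, 2 after centring) fell, with a median of 0.31. These shares, 51.6% higher and 3.23% lower, stood against 23.9% and 18.3% over all genes. BNIP3L was at 12.4 and 11.7 RPKM in normoxia and 79 and 81 RPKM in hypoxia, a difference of 2.68 (SE 0.10, adjusted p = 2.3e-08), and BNIP3 rose as above. The next was GABARAPL1, a protein of the autophagosome membrane, with 1.11. GABARAP, the most abundant of its family here, was at 60.8 and 64.2 RPKM in normoxia and 60.1 and 60.8 RPKM in hypoxia and did not pass (adjusted p = 0.66). On a list of 48 lysosomal genes 19 (12 without library 9) rose and 2 (1 without library 10 or 11, 5 after quantile normalization) fell. The lysosomal list had 39.6% higher and 4.17% lower, against the same shares over all genes. TFEB, a regulator of lysosomal genes, was at 0.243 and 0.302 RPKM in normoxia and 1.06 and 1 RPKM in hypoxia, a difference of 0.99 (SE 0.13, adjusted p = 1.3e-04), and it reached the minimum level through the hypoxia libraries alone. PSAP, the precursor of the saposins, was at 109 and 112 RPKM in normoxia and 199.8 and 181 RPKM in hypoxia, a difference of 0.78 (SE 0.13, adjusted p = 7.3e-04).
Most genes of the clock list rose. Of 16 circadian clock genes 11 rose and 0 (1 after either scaling) fell (median 0.70). Among them C1orf51, a clock repressor now named CIART, was at 0.308 and 0.493 RPKM in normoxia and 4.5 and 3.74 RPKM in hypoxia, a difference of 2.36 (SE 0.15, adjusted p = 9.1e-07). RORA, a nuclear receptor of the clock, was at 0.0155 and 0.0271 RPKM in normoxia and 1.67 and 1.68 RPKM in hypoxia, a difference of 2.06 (SE 0.12, adjusted p = 4.4e-07), and NFIL3 rose by 1.49. The basic helix-loop-helix repressor BHLHE41 rose by 1.65. RORA and BHLHE41 lay near 0 in normoxia and reached the minimum level through the hypoxia libraries of 6 days alone. Without both, 9 of 14 clock genes rose.
Of 28 immediate-early and AP-1 genes 16 rose and 3 fell, which is 57.1% and 10.7% against 23.9% and 18.3% over all genes. FOSL2, an AP-1 subunit, was at 0.832 and 0.993 RPKM in normoxia and 7.11 and 7.21 RPKM in hypoxia, a difference of 2.44 (SE 0.11, adjusted p = 6.2e-08). KLF4, a zinc-finger factor that reached the minimum level through those libraries alone, was at 0.217 and 0.236 RPKM in normoxia and 1.65 and 2.07 RPKM in hypoxia, a difference of 1.70 (SE 0.17, adjusted p = 2.1e-05). ID2, an inhibitor of helix-loop-helix factors, rose by 1.49, whereas EGR1, named after its value was seen, fell from 5.75 and 6 to 2.04 and 2.56 RPKM. On the Notch list 9 of 16 rose and 1 (0 without library 10 or 12, 2 after quantile normalization) fell (median 0.52). Of these, DLL4, a ligand, and MFNG, a receptor modifier, reached the minimum level through the hypoxia libraries of 6 days alone, and without them 7 of 14 rose. HEY1, a Notch target, was at 1.12 and 1.09 RPKM in normoxia and 5.39 and 5.49 RPKM in hypoxia, a difference of 1.89 (SE 0.08, adjusted p = 6.6e-08), and the receptor NOTCH3 rose by 1.65.
Class I antigen presentation split between its parts. Of 18 genes 8 rose and 4 (2 without library 10) fell. The share higher was 44.4% against 23.9% over all genes, and the share lower, 22.2%, was near the 18.3% over all genes. HLA-B, a heavy chain, was at 46 and 50.1 RPKM in normoxia and 136 and 135 RPKM in hypoxia, a difference of 1.49 (SE 0.11, adjusted p = 2.4e-06), and HLA-G rose by 1.06. HLA genes are near copies of each other, so their separate levels are uncertain. B2M, their shared light chain, was at 125 and 132 RPKM in normoxia and 152 and 142 RPKM in hypoxia and did not pass (adjusted p = 0.16).
Of 31 endoplasmic reticulum chaperone and unfolded protein response genes 12 rose and 3 (6 after quantile normalization, 5 after centring) fell. ERO1L, the oxidase that makes disulfide bonds, was at 15.3 and 16 RPKM in normoxia and 61.4 and 59.7 RPKM in hypoxia, a difference of 1.92 (SE 0.12, adjusted p = 9.2e-07). HSP90B1, a chaperone of the compartment, was at 109 and 102 RPKM in normoxia and 172 and 168 RPKM in hypoxia, a difference of 0.69 (SE 0.11, adjusted p = 4.7e-04). CRELD2, a secreted product of that response, fell from 4.95 and 6.84 to 2.47 and 2.24 RPKM, a difference of -1.15.

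Most genes of DNA replication fell. Of 54 tested, 36 fell and none rose, with a median of -0.44 against 0.04 over all genes, and 29 to 32 fell with one library left out. MCM7, a subunit of the replicative helicase, was at 43.3 and 44.9 RPKM in normoxia and 24 and 21.9 RPKM in hypoxia, a difference of -0.93 (SE 0.13, adjusted p = 2.1e-04). CDC45, its partner in the helicase, was at 9.5 and 10.0 RPKM in normoxia and 5.01 and 4.8 RPKM in hypoxia, a difference of -0.92 (SE 0.15, adjusted p = 6.0e-04), and PRIM1, a primase, fell by 0.89. PCNA, the sliding clamp, was at 44.3 and 47.7 RPKM in normoxia and 34 and 32.6 RPKM in hypoxia, a difference of -0.46 (SE 0.10, adjusted p = 0.0042). In each of these 4 genes the hypoxia libraries lay below the normoxia libraries, by less than 2-fold.
The letters TTTNNCGC, a form of the E2F site, stood in 51.1% of the 47 replication genes with a promoter (24), against 11.2% of the tested genes and 6.9% of all promoters. Among all genes lower in hypoxia the share was 12.9%, and among those at least 2-fold lower 12.7%, both near that of the tested genes. Among genes higher in hypoxia it was 8.64%. Whether the letters had a part in the falls was not tested. The promoter of MCM7, the lowest member with these letters, was chosen for print after its value was seen, and capitals mark the matches on both strands.
MCM7 (chr7:100101348-100101647, minus strand): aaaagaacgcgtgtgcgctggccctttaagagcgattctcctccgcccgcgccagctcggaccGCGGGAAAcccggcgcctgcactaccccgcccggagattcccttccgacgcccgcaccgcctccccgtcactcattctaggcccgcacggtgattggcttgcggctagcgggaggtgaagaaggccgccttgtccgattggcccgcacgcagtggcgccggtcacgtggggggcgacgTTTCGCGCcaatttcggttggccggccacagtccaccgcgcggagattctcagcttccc
Histone genes that are expressed with replication fell further. Of 52 tested, 38 fell and 1 rose (median -0.77), and 29 to 34 fell with one library left out. HIST1H2BJ, a histone H2B gene, was at 331 and 356 RPKM in normoxia and 119.9 and 104 RPKM in hypoxia, a difference of -1.62 (SE 0.19, adjusted p = 6.5e-05). HIST1H4J was at 998 and 989.8 RPKM in normoxia and 398 and 318 RPKM in hypoxia, a difference of -1.48 (SE 0.23, adjusted p = 5.4e-04). HIST1H4D, the gene that rose, was at 0.183 and 0.09 RPKM in normoxia and 1.15 and 1.41 RPKM in hypoxia and reached the minimum level through the hypoxia libraries alone. Histone genes are close copies, and some share all 12 values in the table, among 65 tested genes in 26 sets, so single members are uncertain. Both normoxia libraries of 6 days lay above all 8 libraries of 6 hr and 48 hr in 29 of the 52 histone genes, against 26.9% of all genes, while both hypoxia libraries lay above them in 10 (34.5% of all genes). For HIST1H4K the earlier libraries ran from 10.7 to 22.6 RPKM, and the 2 normoxia libraries of 6 days were above that range.
Repair and nucleotide genes that passed were mostly lower. On the repair list of homologous recombination, Fanconi and mismatch genes, 23 of 39 fell and 1 (0 without any one of the 4, 0 after either scaling) rose (median -0.34, with 16 to 21 lower when one library was left out). FANCI was at 24.5 and 23.5 RPKM in normoxia and 12 and 13.6 RPKM in hypoxia, a difference of -0.88 (SE 0.09, adjusted p = 2.4e-05), and BLM, a helicase, fell by 0.75. Of 32 genes of nucleotide and one-carbon synthesis 16 fell and 2 (0 without library 10 or 12, 1 without library 9 or 11) rose (median -0.32). PFAS and GART, of purine synthesis, fell by 1.33 and 1.11. RRM2, of ribonucleotide reductase, was at 37.9 and 34.2 RPKM in normoxia and 17.5 and 18.6 RPKM in hypoxia, a difference of -0.98 (SE 0.12, adjusted p = 1.1e-04).
Most mitotic genes did not pass the threshold. Of 63 spindle, kinetochore and checkpoint genes 16 (8 without library 11, 10 without library 10, 27 after either scaling) fell, which is 25.4% against 18.3% over all genes, and 4 (1 without library 10 or 11, 2 without library 12) rose (median -0.12). MKI67, the proliferation marker Ki-67, was at 11.6 and 11.8 RPKM in normoxia and 9.59 and 13.6 RPKM in hypoxia, a difference of -0.04 (SE 0.20, adjusted p = 0.9). Of 33 cyclins, inhibitors and E2F factors 6 rose and 9 (2 without library 12, 3 without library 10, 5 without library 9) fell. These shares, 18.2% higher and 27.3% lower, stood against 23.9% and 18.3% over all genes. CDKN1A, the inhibitor p21, was at 0.539 and 0.828 RPKM in normoxia and 3.92 and 3.48 RPKM in hypoxia, a difference of 1.84 (SE 0.14, adjusted p = 2.8e-06). CCNG2, a cyclin linked to arrest, rose by 1.59 and CDKN2D, the inhibitor p19, by 1.31.

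Most genes of sterol and fatty acid synthesis fell. Of 35 genes 27 fell and 2 rose (median -0.63), with 21 to 26 lower when one library was left out. FDPS was at 67 and 66.4 RPKM in normoxia and 26 and 21.7 RPKM in hypoxia, a difference of -1.47 (SE 0.13, adjusted p = 1.1e-05). ELOVL6, a fatty acid elongase, was at 17.4 and 17.3 RPKM in normoxia and 7.36 and 7.35 RPKM in hypoxia, a difference of -1.18 (SE 0.11, adjusted p = 1.2e-05), and ACACA, acetyl-CoA carboxylase, fell by 1.05. The list's 2 risers were a regulator and a desaturase. INSIG2, which holds the sterol sensor in the endoplasmic reticulum, was at 4.76 and 3.87 RPKM in normoxia and 23.9 and 22.8 RPKM in hypoxia, a difference of 2.31 (SE 0.11, adjusted p = 1.3e-07). SCD, the oxygen-dependent desaturase, was at 139.8 and 146 RPKM in normoxia and 197 and 188 RPKM in hypoxia, a difference of 0.43 (SE 0.10, adjusted p = 0.0057). At 48 hr the same list held 6 higher and 1 lower genes, and by the test of the difference itself the effect at 6 days was lower than that at 48 hr for 19 of the 35.
The difference from 48 hr was tested for every gene. It passed for 1276 genes, of which 642 (5.38%) had a higher and 634 (5.31%) a lower effect at 6 days. Against 6 hr it passed for 2555 genes, 1342 (11.2%) higher and 1213 (10.2%) lower. FDPS is an example, with an effect of -0.10 at 48 hr and a difference of -1.37 (SE 0.19, adjusted p = 0.0026). Its level in normoxia was 71.2 RPKM at 48 hr and 66.7 RPKM at 6 days, and in hypoxia it went from 66.4 to 23.9 RPKM.
Genes of mitochondrial respiration that passed the threshold were more often lower than higher. Of 46 subunits and assembly factors of respiratory complex I 20 (12 without library 10) fell (43.5%) and 3 rose (median -0.30). NDUFS3, a core subunit, was at 24.8 and 20.3 RPKM in normoxia and 14 and 12.4 RPKM in hypoxia, a difference of -0.75 (SE 0.12, adjusted p = 5.0e-04). NDUFB8, another subunit, rose from 40.0 and 36.8 to 78.6 and 83.2 RPKM, a difference of 1.07 (SE 0.11, adjusted p = 4.2e-05). In complexes II to V 12 (6 without library 12) of 47 fell and 6 rose. The share lower, 25.5%, was near the 18.3% over all genes. ATP5D, of the ATP synthase, was at 62.2 and 66.6 RPKM in normoxia and 28.6 and 28.3 RPKM in hypoxia, a difference of -1.17 (SE 0.13, adjusted p = 4.2e-05), and ATP5G1 fell by 1.23, whereas ATPIF1, an inhibitor of that enzyme, rose by 0.82.
Of 30 genes of pyruvate dehydrogenase and the TCA cycle 12 (19 after quantile normalization) fell and 2 (0 without library 9 or 10 or 11, 1 without library 12) rose (median -0.29). The share lower was 40.0% against 18.3% over all genes, and the share higher 6.67% against 23.9%. FH, fumarase, was at 21.7 and 22.2 RPKM in normoxia and 14.2 and 13.2 RPKM in hypoxia, a difference of -0.66 (SE 0.13, adjusted p = 0.0019). Of 76 mitochondrial ribosomal proteins 29 fell and 1 rose (median -0.24), and MRPL24 was at 39.9 and 38 RPKM in normoxia and 17.9 and 16.5 RPKM in hypoxia, a difference of -1.16 (SE 0.12, adjusted p = 2.6e-05). Most cytosolic ribosomal proteins did not pass the threshold. Of 79 tested, 1 (0 without library 10, 0 after quantile normalization) rose and 4 (0 without library 10 or 12, 1 without library 11, 2 without library 9, 16 after quantile normalization, 7 after centring) fell, and their median was 0.07 as deposited and -0.16 after quantile normalization. RPS12, among the most abundant, was at 757 and 741 RPKM in normoxia and 795 and 725 RPKM in hypoxia, a difference of 0.02 (adjusted p = 0.93) that turned to -0.54 after quantile normalization (adjusted p = 0.041).
Of 56 ribosome biogenesis genes 27 (13 without library 10, 16 without library 12) fell and 7 (1 without library 9, 2 without library 10 or 11, 3 without library 12) rose (median -0.23). In 51 of the 56 both normoxia libraries of 6 days, and in 51 both hypoxia libraries, lay below all 8 earlier libraries. Over all genes these shares were 28.8% and 30.1%. NOP56, a nucleolar protein of rRNA processing, was at 31.2 and 31.2 RPKM in normoxia and 16.2 and 17.3 RPKM in hypoxia, a difference of -0.88 (SE 0.11, adjusted p = 9.1e-05). Of 37 aminoacyl-tRNA synthetases 18 (11 without library 10) fell and 2 (1 without library 9 or 10 or 11) rose (median -0.28). The synthetase list had 48.6% lower and 5.41% higher, against 18.3% and 23.9% over all genes. CARS2, the mitochondrial enzyme for cysteine, was at 6.3 and 6.99 RPKM in normoxia and 2.79 and 2.42 RPKM in hypoxia, a difference of -1.20 (SE 0.12, adjusted p = 1.9e-05).
All 10 tested members of the MTRNR2L family fell (median -1.48). These nuclear genes are copies of a stretch of the mitochondrial 16S ribosomal RNA gene, their reads may be shared among them and with that RNA, and their levels are uncertain. MTRNR2L8, the most abundant, was at 2860.4 and 2766 RPKM in normoxia and 1061 and 802 RPKM in hypoxia, a difference of -1.61 (SE 0.21, adjusted p = 1.5e-04). Without library 12, 8 of the 10 fell.

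**Figure D3:**
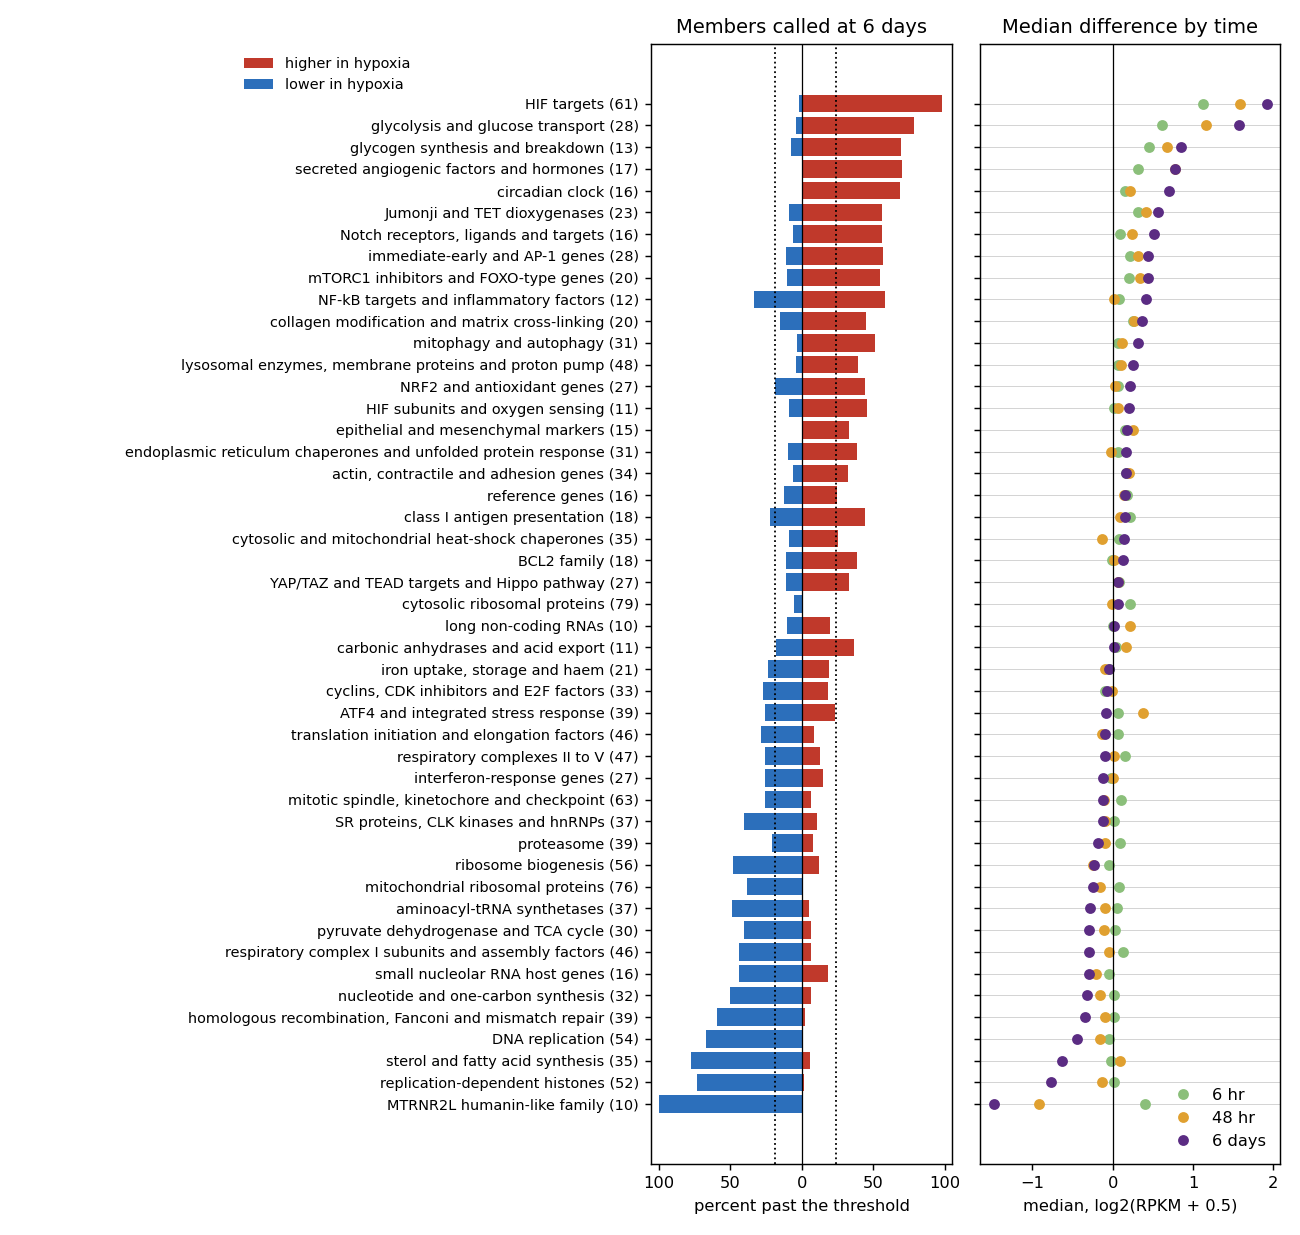
Left panel, percent of the tested members of each gene list shown that were higher (red, right of 0) or lower (blue, left of 0) in hypoxia at 6 days, with the number tested in brackets. Dotted lines mark the percent over all genes, 23.9 higher and 18.3 lower. Right panel, median difference of the same members at each time on the log2(RPKM + 0.5) scale. HIF targets are at the top with a median of 1.92 at 6 days, and histones and sterol genes near the bottom with -0.77 and -0.63.

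The ATF4 and integrated stress response genes were called at 6 days about as often as other genes. Of 39 tested, 9 rose and 10 (6 without library 10 or 12) fell, which is 23.1% and 25.6% against 23.9% and 18.3% over all genes. NUPR1, a stress-induced nuclear protein among the risers, reached the minimum level through the hypoxia libraries of 6 days alone. These genes help cells meet a shortage of amino acids. CBS, of cysteine synthesis, was at 48.4 and 53.5 RPKM in normoxia and 28.9 and 28.6 RPKM in hypoxia, a difference of -0.81 (SE 0.09, adjusted p = 7.1e-05). VLDLR, a lipoprotein receptor that is also on the HIF list, rose by 2.41 and STC2, stanniocalcin 2 and also on that list, by 1.66. At 48 hr 18 of the 39 rose and none fell, and by the test of the difference the effect at 6 days was lower than at 48 hr for 17 (10 without library 7 or 12, 11 without library 10) and higher for none.
Levels in normoxia had moved by 6 days. In 33 of the 39 genes both normoxia libraries of 6 days lay above all 8 libraries of 6 hr and 48 hr, and in 35 both hypoxia libraries did. Over all genes these shares were 26.9% and 34.5%. CHAC1, a glutathione-degrading enzyme induced by ATF4, was at 2.09 and 1.69 RPKM in normoxia at 48 hr and 22 and 25.8 RPKM at 6 days, and in hypoxia at 8.91 and 7.2 RPKM at 48 hr and 21.7 and 23.2 RPKM at 6 days. Its effect at 6 days was -0.08 (SE 0.13, adjusted p = 0.63). It was 1.84 at 48 hr, a difference between the times of -1.92 (SE 0.18, adjusted p = 5.7e-04). The groups of CHAC1 overlapped at 6 days and were apart at 48 hr.
Normoxia levels of DDIT4 and TXNIP had also risen by 6 days, but unlike CHAC1 both genes still passed the threshold. DDIT4, which restrains the growth kinase mTORC1 and is also a HIF target, was at 149 and 152 RPKM in normoxia and 224 and 201 RPKM in hypoxia, a difference of 0.49 (SE 0.12, adjusted p = 0.0067). That call was lost without library 11 (adjusted p = 0.058). In normoxia at 48 hr it was at 19.3 and 18.3 RPKM, and its effect was 2.52 then. TXNIP, which lowers glucose uptake, was at 60.4 and 63.3 RPKM in normoxia and 146 and 141 RPKM in hypoxia, a difference of 1.21 (SE 0.14, adjusted p = 7.6e-05), against 4.79 and 4.91 RPKM in normoxia and 37.9 and 33.4 RPKM in hypoxia at 48 hr. On the list of mTORC1 inhibitors and FOXO-type genes 11 of 20 rose and 2 (1 without any one of the 4) fell (median 0.44). Both normoxia libraries of 6 days lay above all earlier libraries in 15 of the 20, against 26.9% of all genes. For such genes the comparison at 6 days is with a normoxia level unlike that of the earlier times, and the part of culture time in it was not tested.
The reverse held for structural genes. Of 34 actin, contractile and adhesion genes, 29 had both normoxia libraries of 6 days below all 8 earlier ones, against 28.8% of all genes, and 28 had both hypoxia libraries below them (30.1% of all genes). Between the groups of 6 days 11 (7 without library 9) of the 34 rose and 2 (1 without library 9 or 11 or 12) fell. By share 32.4% were higher and 5.88% lower, against 23.9% and 18.3% over all genes. VCL, vinculin of focal adhesions, was at 84.1 and 86.5 RPKM in normoxia and 56.6 and 59.3 RPKM in hypoxia, a difference of -0.55 (SE 0.09, adjusted p = 7.9e-04), and TAGLN2 was at 14.9 and 14.7 RPKM in normoxia and 32.5 and 31.3 RPKM in hypoxia, a difference of 1.08 (SE 0.08, adjusted p = 3.7e-06).

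On the iron list HMOX1 and TFRC differed most. TFRC, the transferrin receptor, which brings iron into the cell, was at 13.2 and 12.5 RPKM in normoxia and 75.8 and 76.6 RPKM in hypoxia, a difference of 2.53 (SE 0.11, adjusted p = 6.2e-08). Its normoxia libraries of 6 hr and 48 hr were at 81.7 to 102 RPKM, so the 2 normoxia libraries of 6 days were the low ones, and the hypoxia libraries of 6 days lay inside the range of the earlier 8. HMOX1, haem oxygenase 1, was at 3.27 and 4.12 RPKM in normoxia and 27.1 and 23.3 RPKM in hypoxia, a difference of 2.62 (SE 0.14, adjusted p = 1.8e-07). FTL, the ferritin light chain, was at 191 and 164 RPKM in normoxia and 328 and 383 RPKM in hypoxia, a difference of 1.00 (SE 0.24, adjusted p = 0.0075), and its call was lost after quantile normalization (adjusted p = 0.074) and without library 10 (adjusted p = 0.056) or 12 (adjusted p = 0.051). Of the 21 genes on the list 4 rose and 5 fell (19% and 23.8%, near the background of 23.9% and 18.3%), and FECH, which puts iron into haem, fell from 7.59 and 8 to 4.66 and 4.43 RPKM.
In the antioxidant list 12 of 27 rose and 5 (3 without library 10, 8 after quantile normalization) fell. The share higher was 44.4% against 23.9% over all genes, and the share lower, 18.5%, was near the 18.3% over all genes. PRDX4, a peroxiredoxin of the endoplasmic reticulum, was at 20.8 and 14.9 RPKM in normoxia and 38.4 and 34.4 RPKM in hypoxia, a difference of 1.03 (SE 0.13, adjusted p = 1.5e-04). Of 27 interferon-response genes 4 (2 without library 10) rose and 7 (3 without library 11, 4 without library 10, 11 after quantile normalization) fell. By share the interferon list had 14.8% higher and 25.9% lower, against 23.9% and 18.3% over all genes. ISG20, an exonuclease, rose by 1.12 while IFI35 fell. Of 12 NF-kB genes 7 (4 without library 10 or 11) rose and 4 (1 without library 12, 2 without library 9 or 10) fell, and CXCL1, a chemokine, was at 18.2 and 16 RPKM in normoxia and 6.54 and 5.43 RPKM in hypoxia, a difference of -1.44 (SE 0.11, adjusted p = 3.4e-06). RELA rose by 0.94. On the NF-kB list 58.3% were higher and 33.3% lower, against 23.9% and 18.3% over all genes.

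**Figure D4:**
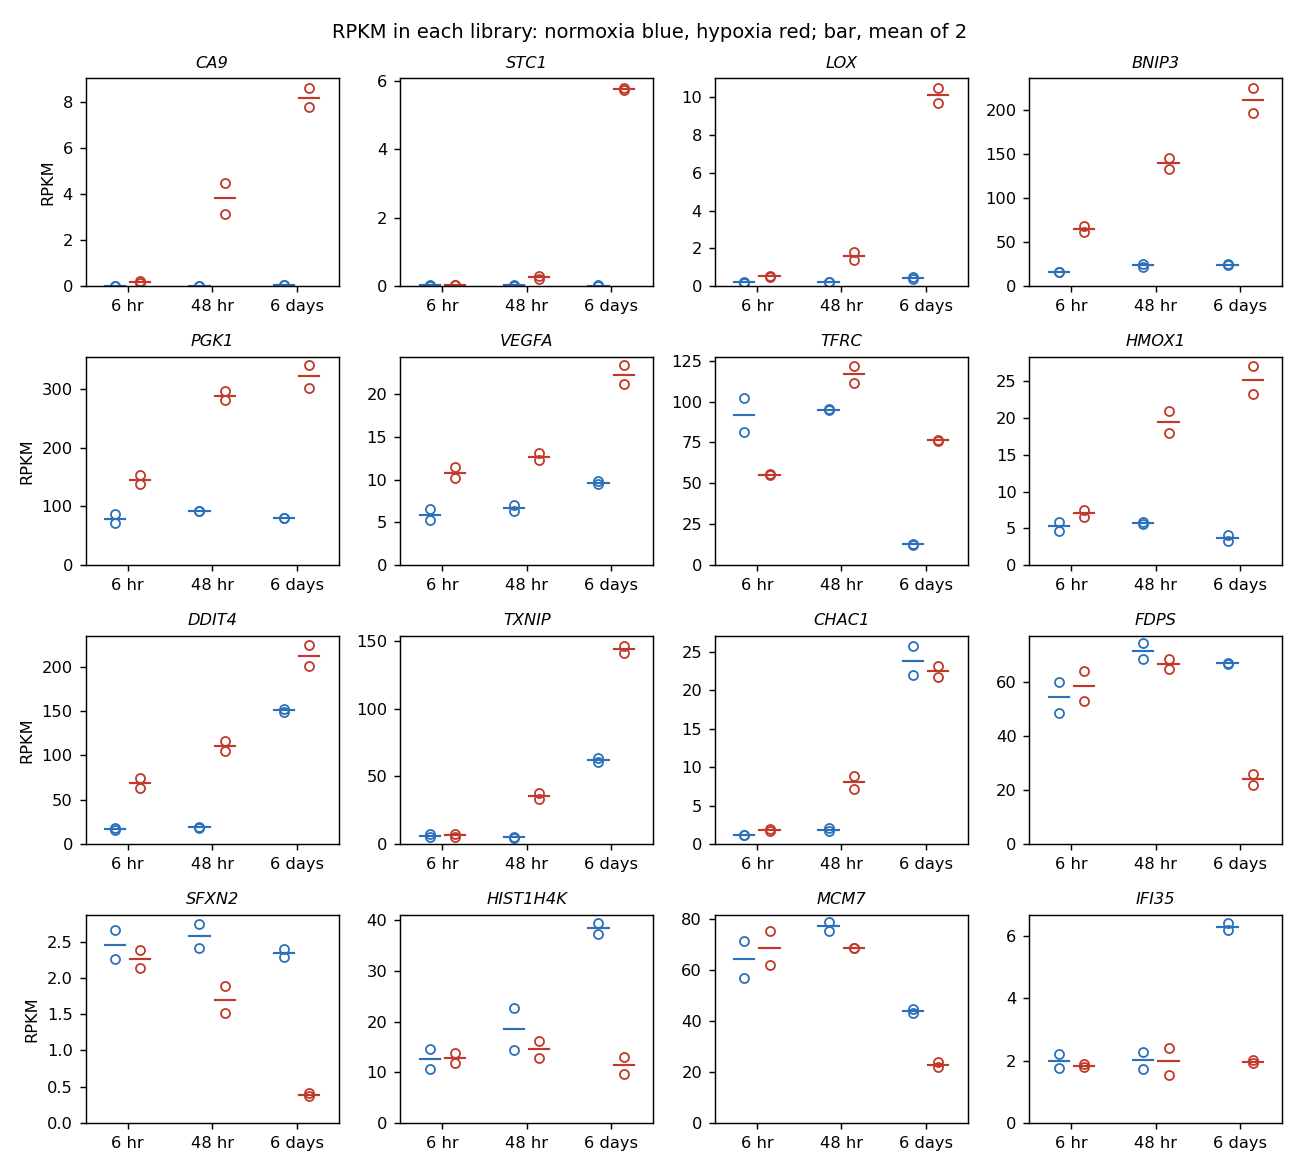
RPKM (y axis) of 16 genes in each of the 12 libraries by time (x axis). Blue circles are normoxia libraries, red circles hypoxia libraries, and each bar is the mean of 2. CA9, STC1 and LOX stay near 0 in normoxia and are highest in hypoxia at 6 days, TFRC parts through low normoxia libraries, and DDIT4, TXNIP and CHAC1 have higher normoxia levels at 6 days than before.

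Splicing factors and long non-coding RNAs held a few strong movers. Of 37 SR proteins, CLK kinases and hnRNPs 4 rose and 15 (9 without library 12) fell. These shares, 10.8% higher and 40.5% lower, stood against 23.9% and 18.3% over all genes. CLK3 and CLK1, kinases that phosphorylate SR proteins, rose by 1.52 and 1.02. SRSF7, an SR protein, was at 19.6 and 19.5 RPKM in normoxia and 10.1 and 9.81 RPKM in hypoxia, a difference of -0.94 (SE 0.12, adjusted p = 1.3e-04). H19, an imprinted non-coding RNA, was at 1.83 and 2.47 RPKM in normoxia and 12.5 and 13.3 RPKM in hypoxia, a difference of 2.35 (SE 0.13, adjusted p = 2.5e-07), and MALAT1 was at 474 and 444 RPKM in normoxia and 394 and 469.5 RPKM in hypoxia and did not pass (adjusted p = 0.71). The list of small nucleolar RNA host genes had 18.8% higher and 43.8% lower, against the same shares over all genes. Among small nucleolar RNA host genes, 7 (4 without library 10) of 16 fell and 3 rose, and SNHG5 was at 144 and 129.6 RPKM in normoxia and 71.8 and 65.6 RPKM in hypoxia, a difference of -0.99 (SE 0.12, adjusted p = 1.1e-04).
Short non-coding RNAs that passed the threshold were mostly higher in hypoxia. Of 493 tested, 217 (44.0%) were higher and 9 (1.83%) lower, and their median difference was 0.74 against 0.02 over the other 11440 genes. RPKM of such short features rests on few reads, since 1 read on 90 bases is worth 0.335 to 0.442 RPKM in the 4 libraries. MIR210, the hairpin gene of the main hypoxia miRNA, was at 0 and 0.6 RPKM in normoxia and 10.7 and 9.04 RPKM in hypoxia, a difference of 3.80 (SE 0.28, adjusted p = 2.7e-06). MIR182 was at 0.61 and 1.5 RPKM in normoxia and 7.94 and 9.4 RPKM in hypoxia, a difference of 2.62 (SE 0.32, adjusted p = 1.1e-04). MIR29B2 was listed at 0 in both normoxia libraries and at 3.35 and 1.47 RPKM in hypoxia. MIR29B2 reached the minimum level through these 2 hypoxia libraries alone, and the 3 were named among short RNAs whose groups do not overlap. The values count reads on hairpin genes in total RNA, not mature miRNAs.
The mature strands of these 3 hairpins are shown because their seeds, bases 2 to 8 in capitals, decide which messages they pair with. The sequences are from RefSeq on GRCh38.p14.
hsa-miR-210-3p: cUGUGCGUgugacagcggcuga
hsa-miR-182-5p: uUUGGCAAugguagaacucacacu
hsa-miR-29b-3p: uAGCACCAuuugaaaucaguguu
No seed is shared among the 3. Of the lowest short RNAs, SNORD86, a small nucleolar RNA, was at 125 and 145 RPKM in normoxia and 50.5 and 37.7 RPKM in hypoxia, a difference of -1.61 (SE 0.28, adjusted p = 0.001), while MIR99B and MIR663 lost their calls when library 9 or 12 was left out.

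The effect at 6 days was set beside that at 48 hr, which had its own control libraries. At 48 hr 1448 genes passed the threshold, 1103 higher and 345 lower. Of the genes higher at 6 days 840 were also higher at 48 hr, which is 29.5% of the 6-day list and 76.2% of the 48 hr list. Of the genes lower at 6 days 222 were lower at 48 hr, 10.2% of the 6-day and 64.3% of the 48 hr list, and 50 genes were called in opposite directions. The number of genes whose effect differed between the times depended on the libraries: it was 365 without library 8 and 480 without library 10, and 365 to 630 with any one of the 8 left out.
Among protein-coding genes the effect on STC1 rose most from 48 hr to 6 days, by 3.05 (SE 0.17, adjusted p = 1.7e-05), with a mean of 0.265 RPKM in hypoxia at 48 hr and 5.75 RPKM at 6 days. The gene was tested only because of its 2 hypoxia libraries of 6 days. LOX differed by 1.94 (SE 0.18, adjusted p = 4.2e-04) and CA9 by 0.92 (SE 0.21, adjusted p = 0.02). Brackets give the count with one of the 8 libraries of 48 hr and 6 days left out. Of the 61 HIF targets 14 (6 to 8 with any one of the 8 libraries left out) had a higher effect at 6 days and 7 (4 without library 7) a lower one. Of the 16 clock genes 6 had a higher effect and 0 a lower one. Of the 52 histone genes 18 (2 without library 8 or 12, 3 without library 5 or 9 or 10, 6 without library 7) had a lower effect and 1 (0 with any one of the 8 libraries left out) a higher one. Of the 54 replication genes 10 (0 to 4 with any one of the 8 libraries left out) had a lower effect. ARHGAP4, a GTPase-activating gene, was at 5.82 and 6.52 RPKM in normoxia and 3.8 and 3.45 RPKM in hypoxia, against 3.36 and 2.65 RPKM in normoxia and 5.36 and 6.17 RPKM in hypoxia at 48 hr, a difference of -1.54 (SE 0.17, adjusted p = 0.0012).

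**Figure D5:**
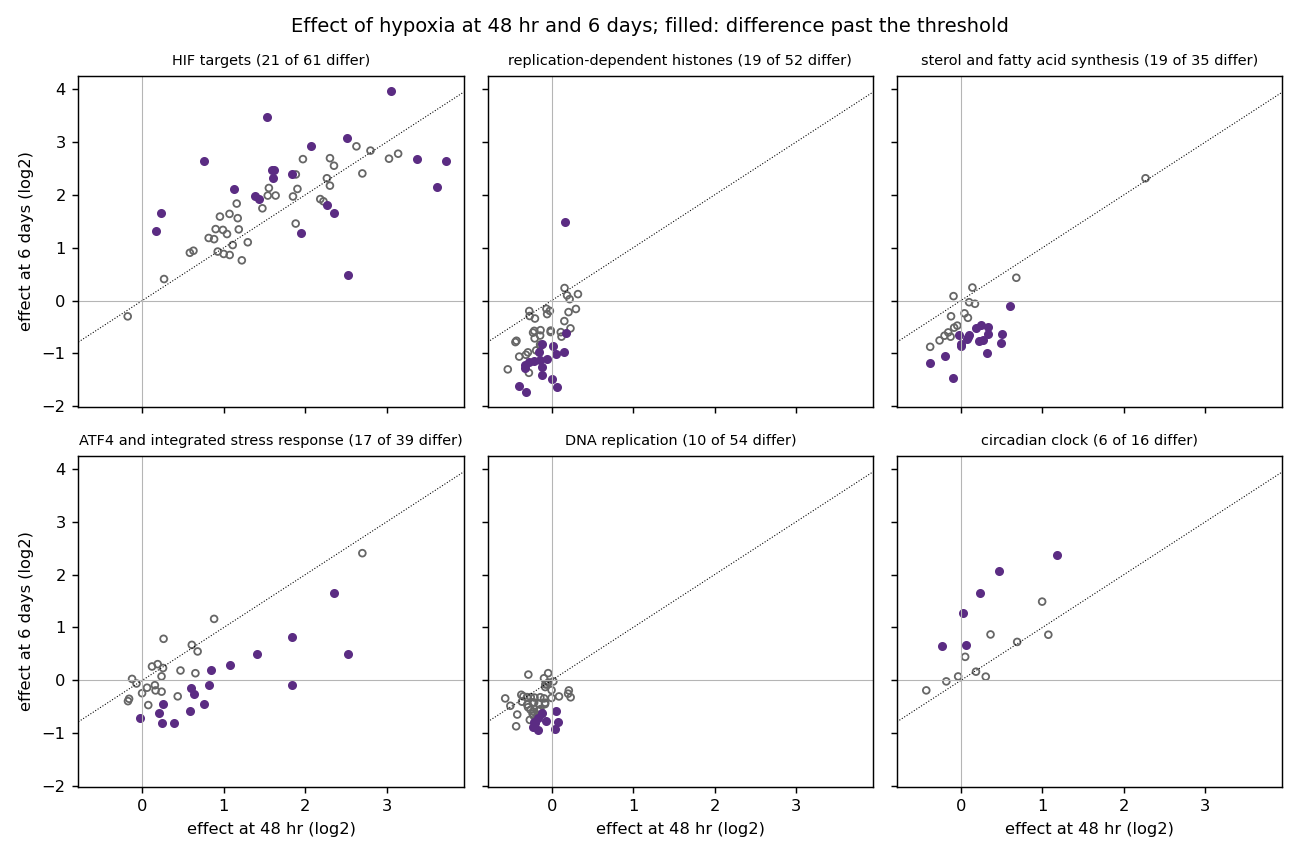
Effect of hypoxia (hypoxia minus normoxia, log2(RPKM + 0.5)) at 48 hr (x axis) and at 6 days (y axis) for the tested members of 6 gene lists. Filled points differed between the times in the test of the difference, and the dotted line marks equal effects. Most histone and sterol genes lie below the line, and several stress response genes that had risen at 48 hr lie nearer 0 at 6 days.

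Markers of other cell types were read in the same libraries. None of 10 endothelial, 12 leukocyte or 5 mesothelial markers reached the level for testing. Of 8 neuronal markers 2 were tested, TUBB3 and SYP. TUBB3 rose by 0.72 (0.48 to 0.97 over the alternatives) and SYP did not pass. The summed level of the 8 was 4.515 and 5.967 RPKM in normoxia and 8.469 and 7.287 RPKM in hypoxia at 6 days. Of 13 epithelial and ovarian markers 3 were tested (EPCAM, KRT8 and KRT18) and none passed the threshold, while KRT7, KRT19, CDH1, PAX8, MUC16, FOLR1 and SOX17 stayed under 0.1 RPKM in all 12 libraries, so several markers that define the labelled tissue were at or near 0. EPCAM was at 38.2 and 33.2 RPKM in normoxia and 41 and 39.8 RPKM in hypoxia. Of 12 fibroblast and smooth muscle markers 7 were tested, 4 (2 without library 9) rose and 1 fell. Their summed level was 237.9 and 237.8 RPKM in normoxia and 199.0 and 186.0 RPKM in hypoxia. POSTN, periostin, made up most of the sum in normoxia. It was at 170.1 and 166 RPKM in normoxia and 99.8 and 90.2 RPKM in hypoxia. Their part in other results was not tested.
Genes often used as references for expression were not all steady. Of 16, 4 rose and 2 fell, while over all genes 23.9% were higher and 18.3% lower. As a list they were thus called about as often as other genes. TFRC, PGK1, GAPDH and HPRT1 rose, and SDHA was among those that fell. HPRT1 was at 19.1 and 17.1 RPKM in normoxia and 28.9 and 29.9 RPKM in hypoxia, a difference of 0.69 (SE 0.12, adjusted p = 0.0011). ACTB, beta actin, was at 278 and 291 RPKM in normoxia and 311 and 345 RPKM in hypoxia, a difference of 0.20 (SE 0.16, adjusted p = 0.35), and TBP and PPIA did not pass either. The median of the 16 was 0.15 as deposited and -0.01 after quantile normalization.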

How the data were processed

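Ribosome-depleted total RNA of 12 A2780 libraries was measured as RPKM by the authors and deposited in 1 table of 22446 RefSeq gene symbols, with a second deposited table of RPKM on precursor miRNAs. Partek 6.6 and hg19 are named in the submitters' processing notes, without their roles, and what aligner, gene models and RPKM denominator were used is not given in the sources used here. Counts are therefore not at hand, and depth was implied from the steps between low values of precursors, 88 to 128 values in each 6-day library. RPKM of genes with near copies depends on how shared reads were assigned.
Genes at 1 RPKM or more in at least 2 libraries were kept (11933). Values were taken as log2(RPKM + 0.5), and limma 3.58.1 in R 4.3.3 fitted 6 group means over all 12 libraries. The variance of each gene was shared by the 6 groups and drawn toward a value that follows expression level. Benjamini-Hochberg adjustment was over all tested genes. A call needed an adjusted p under 0.05. The effect at 6 days was also tested against that at 48 hr and at 6 hr in the same fit. The fit was tested on simulated data with normal noise that was independent between genes. Log2 changes of 0.5, 1 and 2 were given to 67, 67 and 66 of the 11933 genes, and 44.8%, 88.1% and 95.5% of them were recovered. Of the 155 calls 1.94% were false. The data gave 5039 calls, a setting the simulation did not cover, so these shares need not hold there. Python 3.11.15, pandas 2.3.3 and matplotlib 3.10.9 made the tables and plots.
The comparison, the gene lists and the rule for named genes were chosen with earlier results of these data known. The rule took called genes without overlap between groups whose higher group averaged 2 RPKM or more, namely the 14 with the largest rise and the 14 with the largest fall, plus 5 short RNAs each way. It added from each list 5 members called with the largest change and 2 of greatest abundance, the 6 strongest differences from 48 hr each way, and some index genes. Symbols were matched to current names for 18976 genes and to older names for 2371, and 1099 stayed unmatched. Of the list genes 5 had no row, among them MIR210HG, SNHG16 and NORAD. Alternatives were other pseudocounts (0.1 and 1), filters, scalings, sets of libraries, no trend and each library left out. Counts per list without each library, and without members tested only through the 2 hypoxia libraries of 6 days, were added after seeing the data. Promoter and miRNA sequences are from RefSeq tables on GRCh38.p14, and 9020 tested genes had a promoter there. A few single genes are not reported here.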

Additional observations from a re-analysis of the deposited data

Results flagged for a closer look

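The effect of hypoxia at 6 days differed from that at 48 hr for 1276 genes and from that at 6 hr for 2555 genes, by limma's test of the difference with an adjusted p under 0.05. The 6 highest and 6 lowest differences from 48 hr are given on the log2(RPKM + 0.5) scale. They were 3.46 for SNORD115-4, 3.09 for MIR29B2, 3.05 for STC1, 2.58 for MIR130A, 2.48 for NPPB and 2.23 for TFRC. On the lower side they were -2.03 for DDIT4, -1.92 for CHAC1, -1.69 for HIST1H4I, -1.68 for MIR663, -1.54 for TXNIP and -1.54 for ARHGAP4. STC1 and MIR29B2 were tested only because of the hypoxia libraries of 6 days. SNORD115-4, MIR29B2, MIR130A and MIR663 are short RNAs, in which a single read weighs more.
In the table of precursor miRNAs, which no comparison above used, the hsa-mir-210 precursor had a mean of 9.86 RPKM in hypoxia at 6 days (10.7 and 9.04). In normoxia it was listed at 0 and at 0.60 RPKM, where 3 reads on its 110-base hairpin are worth 0.914 and 0.901 RPKM. These values equal those of MIR210 in the table of genes in each library but library 8 (7.20 against 6.97 RPKM), so they are no second measurement.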

How the results depend on the processing

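Of 331 named genes 276 were called, and 241 of these kept their call under each of the 13 alternatives in which they were tested. The filter on a mean of at least 5 RPKM left out named genes of low level, such as STC1 and CA9. Genes left out were not counted as lost. Single alternatives of processing lost 0 to 9 of the named calls, and leaving out a 6-day library lost 21 to 24. RPS12 reversed, to -0.54 after quantile normalization, and the cause was not tested. With a mean of at least 5 RPKM over the 12 libraries, where fewer genes are tested, 2920 genes were called at 6 days (1500 higher and 1420 lower), 259 at least 2-fold higher and 70 at least 2-fold lower. The same filter gave 698 differences from 48 hr (318 higher and 380 lower) and 1526 from 6 hr (702 higher). Quantile normalization gave 242 genes at least 2-fold lower, 2479 differences from 48 hr (1196 higher and 1283 lower) and 1887 lower differences from 6 hr. A pseudocount of 0.1 gave 179 genes at least 2-fold lower. A fit of the 48 hr and 6-day libraries alone gave 2384 differences from 48 hr (1198 higher and 1186 lower). For the last 3 alternatives the cause was not tested.
With each library left out in turn, 3423 to 3612 genes were called at 6 days, 2012 to 2174 higher and 1302 to 1531 lower. The 1302 came without library 10, and 1438 were lower without library 12. At least 2-fold higher were 554 to 614 genes and at least 2-fold lower 111 to 128. Differences from 48 hr numbered 365 to 630, with 160 to 303 higher and 205 to 346 lower. Differences from 6 hr numbered 1498 to 3147, with 832 to 1929 higher and 639 to 1800 lower. In these fits the lone library of a group is assumed to vary like the other groups. No paired analysis was possible because the groups compared share no replicate numbers.
With 2 libraries a group, an exact permutation test of a single gene could not pass the threshold. Each call rests on the gene's own spread over all 6 groups, combined with the spread shared across genes. The number of reads behind a value is not given, and at the depth implied a short RNA listed at 0 may hold up to a few reads' worth of signal.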
